A study of Mus musculus with 16 samples.

Results

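The genes described here are 10 core transcription factors of the heart: *Nkx2-5*, *Gata4*, *Gata5*, *Gata6*, *Mef2a*, *Mef2c*, *Mef2d*, *Hand1*, *Hand2* and *Srf*. They were taken by gene name, and every probe that carries one of these names was kept, which gave 16 of the 55681 probes and 10 of the 31982 gene names on the microarray. Their RNA was compared between mouse cardiomyocytes (CMs) sorted by the surface level of the integrin α6 chain (ITGA6, also called CD49f) at embryonic day (E) 15.5 and postnatal day (P) 2. The study asked whether this level separates atrial from ventricular CMs, with ITGA6high cells as the atrial and ITGA6low cells as the ventricular fraction. The groups are EL (E15.5 ERBB-2+/ITGA6low), EH (E15.5 ERBB-2+/ITGA6high), PL (P2 ITGA6low) and PH (P2 ITGA6high), with 4 samples each from separate sorting experiments. All mice were wild-type animals of the CD1 strain, and 1 sorting experiment used a pool of 20 to 30 embryonic or 15 newborn hearts. E15.5 cells were gated on the CM surface protein ERBB-2, whereas P2 cells were depleted of non-myocytes with magnetic beads, so that stage and preparation cannot be told apart. The sample numbers are 2, 3, 6 and 8 for the E15.5 groups and 2, 3, 4 and 5 for the P2 groups, and values below are given in this order.

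These factors bind DNA next to each other at cardiac enhancers and activate shared genes of the contractile apparatus and of cardiac hormones. NKX2-5 is a homeodomain protein, GATA4, GATA5 and GATA6 are zinc finger proteins that bind the core GATA, and MEF2 and SRF are related MADS box proteins that bind AT-rich sites. HAND1 and HAND2 are basic helix-loop-helix proteins, known for left and right ventricular growth, respectively, in the early embryo. SRF binds the CArG box and is driven by the coactivator myocardin and its relatives, whereas MEF2 is held back by class IIa histone deacetylases.

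The probes whose results differ most are shown first, because a level on this microarray belongs to 1 probe of 60 bases and not to a whole gene. Given are the first 30 bases of each, 5′ to 3′ in the sense of the RNA as the scanner files hold them, with positions in mm9. No base is marked by capitals.
Gata4 (A_55_P2028894): tagcttcgaaccaagattctgttgtaatca
Hand1 (A_51_P342549): aaataaaagcgttcccattcgttgctgaat
Hand1 (A_55_P2148366): tttacaccgaaccaggcgcctgagaggcta
Hand2 (A_55_P2016237): gtgcgcttccgtcctctaaaactaagtgga
Srf (A_55_P2149540): ccagctgctttacttaagagttgattttga
Srf (A_51_P100289): ggtgtatccctaattaagtgcctctagggg
The *Gata4* probe lies on the minus strand of chromosome 14 (chr14:63817858-63817917) and starts at base 3227 of NM_008092. The *Hand2* probe lies on the plus strand at chr8:59803220-59803279 and starts at base 2140 of NM_010402. Both *Srf* probes are assigned to the same RNA, NM_020493 on the minus strand of chromosome 17, where they start at bases 2515 and 3877, 1362 bases apart. For the downstream one, A_51_P100289, the scanner files give a genome position for only 8 of its 60 bases, so its place there is uncertain and is not given. The brighter *Hand1* probe starts at base 1711 of NM_008213 (chr11:57642342-57642401), and the other at base 4 of a different transcript model, ENSMUST00000108845. Whether a probe lies in coding sequence or in an untranslated region was not analysed here.

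A probe is called detected here if the scanner software marked it as well above background on every microarray of some group, and detected throughout if it did so on all 16. Of the 16 member probes, 14 were detected, and 13 of these throughout. The exception was *Hand1* A_51_P342549, which was well above background on the 4 EL and the 4 EH microarrays, on 1 of 4 in PL and on 0 of 4 in PH. The other two, *Hand1* A_55_P2148366 and *Mef2a* A_65_P08239, did not rise well above background on any microarray and are not described further. *Nkx2-5*, *Gata4*, *Gata5*, *Gata6*, *Mef2c* and *Hand2* had 1 probe each, *Mef2a* 2 detected probes, *Mef2d* 3 and *Srf* 2. Values are quantile-normalized signal intensities, which can be compared between groups for 1 probe but not between probes.

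On the microarrays as a whole, the share of probes well above background was 35.7 to 46.5%, with the highest share and the highest median signal in sample 2 of EH. The CM markers fixed as a check (*Tnnt2*, *Actn2*, *Ryr2*, *Ttn*, *Myh6*, *Tnni3* and *Myl4*) were detected throughout. Markers of other cells were present too. In each fraction, summed signals of fibroblast, epicardial, smooth muscle and pericyte, leukocyte and erythroid genes were higher at E15.5 than at P2, without overlap. The endothelial sums overlapped between the stages (845 to 1905 in EH, 614 to 1261 in PH). The neural crest and Schwann sums overlapped too (88.8 to 123 in EH, 110 to 152 in PH). The summed signal of 7 fibroblast genes was 12684 to 22157 in EL and 5365 to 10362 in EH, but 519 to 1602 in PL and 522 to 788 in PH, and that of 5 epicardial genes was 1832 to 3137, 479 to 2172, 39.6 to 174 and 79.5 to 177 in the same order. Of 7 endothelial genes, 4 were higher in EH than in EL, with *Cdh5* and *Emcn* well above background in EH alone. *Kdr*, which made up most of the endothelial sum, was not among the 4, with means of 1037 in EL and 834 in EH. The part of these cells in the results on the members was not tested, and with bulk RNA fewer cells of a type and less RNA per cell cannot be told apart. A difference is said to pass the test at an adjusted p of at most 0.05 (limma, Benjamini-Hochberg over all 55681 probes).

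**Figure D1:**
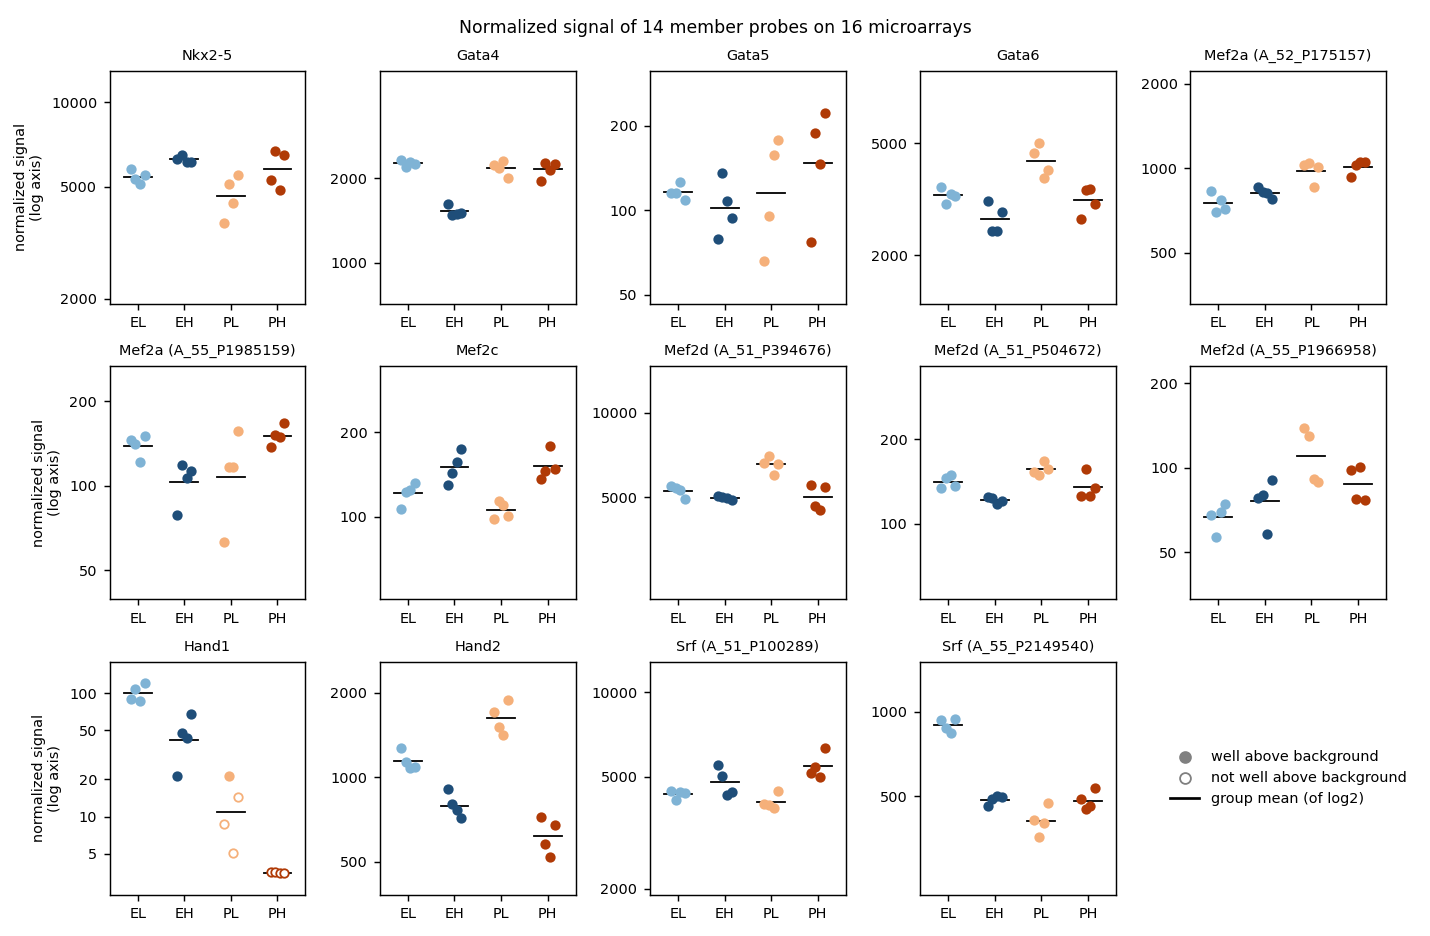
Normalized signal intensity (log axis) of the 14 detected member probes on the 16 microarrays, 4 per group; filled points are well above background, open points are not, and lines are group means of log2 values. *Gata4* is lowest in EH, *Hand2* highest in PL and lowest in PH, *Hand1* falls from E15.5 to background in PH, and the *Srf* probes show different patterns.

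Between the fractions at E15.5, 3 of the 16 member probes were lower in EH than in EL and 0 were higher. They belong to *Gata4*, *Hand2* and *Srf*. Of all 55681 probes, 3.83% were lower and 4.27% higher by the same test. Among probes detected throughout, 18.8% differed in either direction, against 3 of the 13 member probes (23.1%). The median log2 fold-change of these 13 was -0.19, and that of all probes detected throughout was -0.058.

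At P2, 4 member probes were lower in PH than in PL (*Hand2*, *Gata6*, *Mef2d* A_51_P394676 and *Hand1*) and 2 were higher (*Mef2c* and *Srf* A_51_P100289). Over all probes, 5.41% were lower and 6.15% higher. Among probes detected throughout 26.7% differed, against 5 of the 13 member probes (38.5%). The fitted value of 1 member probe, *Hand1*, also passed the limit of 3-fold used in the study, as did 0.916% of all probes in this direction, but no fold is given because the probe was at background on all PH and on 3 of 4 PL microarrays. The *Hand1* call was lost with a floor for dim signals and with normexp background correction, with an adjusted p of up to 0.348. The median log2 fold-change of the 13 probes was 0.047, and that of all such probes was -0.029. *Hand2* was the single gene that passed the test in both stages, counted by the same probe.

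**Figure D2:**
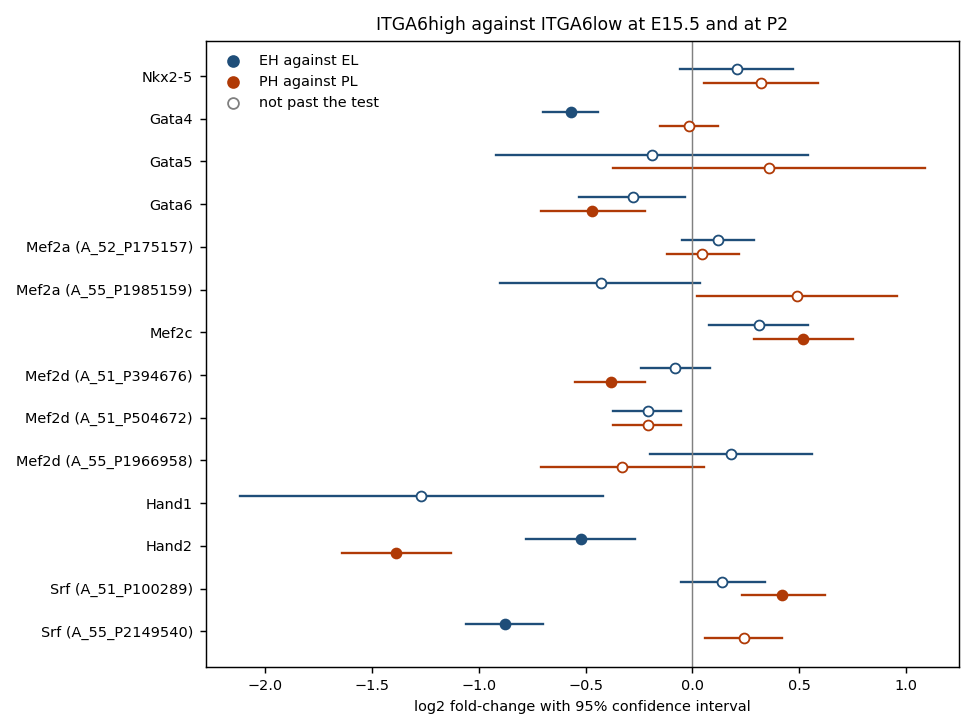
Log2 fold-change (x axis) of each detected member probe between ITGA6high and ITGA6low cells at E15.5 (blue) and P2 (red) with 95% confidence intervals; filled points pass the test. *Hand2* lies left of 0 at both stages, and *Gata4* and the *Srf* probe A_55_P2149540 at E15.5 alone; *Hand1* is not drawn at P2, where it was at background in PH.

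*Hand2*, the HAND factor known for the right ventricle, was lower in the ITGA6high fraction at both stages, and more so at P2. Its signal was 1268, 1134, 1081 and 1089 in EL and 907.5, 802.5, 763 and 713.9 in EH. In PL it was 1714, 1508, 1414 and 1886, and in PH 719.4, 577, 522.3 and 678.8. The groups of each stage did not overlap, and every PH sample was below every EL and PL sample. The log2 fold-change was -0.52 ± 0.119 (SE, adjusted p = 0.0131, limma) at E15.5 and -1.39 ± 0.119 (adjusted p = 2.38e-06) at P2, which is 1.44-fold and 2.62-fold lower. The difference between both, tested as the interaction of fraction and stage, was -0.86 (95% confidence interval -1.23 to -0.50, adjusted p = 0.0113). Scaled to the 75th percentile of each microarray in place of quantile normalization, the interaction was -0.81 with an adjusted p of 0.0661. Within the 2 slides that held E15.5 samples, EH minus EL was -0.55 and -0.54, the latter from only 1 EH and 2 EL samples.

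*Cspg4*, 1 of 5 genes fixed as markers of smooth muscle and pericytes, was lower in the ITGA6high fraction at both stages too, at a mean of 1682, 532, 1256 and 412 in EL, EH, PL and PH (-1.66 with adjusted p = 2.38e-07 and -1.60 with adjusted p = 9.53e-08). It made up most of the summed signal of the 5 genes, which was 1614 to 1986 in EL against 772 to 862 in EH, and 1167 to 1498 in PL against 393 to 466 in PH. The others did not go with *Hand2*. At E15.5, *Pdgfrb* was higher in EH by 1.11 (adjusted p = 0.0145), *Rgs5* was higher with a mean of 34.8 in EH and none of 4 EL microarrays well above background (adjusted p = 6.8e-06), and *Notch3* had 0.54 (adjusted p = 0.247). At P2 these 3 genes were at background in PL and PH, and *Myh11* was not well above background on any microarray. The part of such cells in the *Hand2* values was not tested.

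*Hand1*, the other HAND factor, was dim and was lost to background at P2. The signal was 90.3, 108.7, 86.4 and 119.9 in EL and 21.2, 47.9, 43.2 and 68.3 in EH, and every EH sample was below every EL sample. At 2.41-fold lower in EH (log2 fold-change -1.27 ± 0.394), it did not pass the test (adjusted p = 0.0707), with adjusted p from 0.000952 to 0.201 over the alternatives. It passed under 8 of 24 alternatives. Among these were scaling to the 75th percentile (adjusted p = 0.0457), normexp background correction (-0.61, adjusted p = 0.000952) and a floor for dim signals (adjusted p = 0.00476). Testing only detected probes (adjusted p = 0.0265) and the study's analysis of variance with Tukey test (adjusted p = 0.0414) were others. In the two-sided exact permutation test of 4 against 4 samples p was 0.0286, the smallest that this test can give. It treats the samples as unpaired, although EL and EH samples of the same number were read as 1 sorting experiment. Signals of 8.77, 21.5, 5.09 and 14.5 in PL and 3.54, 3.54, 3.49 and 3.52 in PH stood against levels of 14 to 23.2 as the dimmest that were well above background on these microarrays.

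Among the zinc finger factors, *Gata4* was lower in EH than in EL, and the 4 EH samples lay below all other samples. Its signal was 2327, 2192, 2274 and 2250 in EL and 1622, 1480, 1493 and 1500 in EH. At P2 it was 2223, 2165, 2302 and 2006 in PL and 1956, 2259, 2141 and 2241 in PH. EL and EH did not overlap, whereas PL and PH did. The log2 fold-change was -0.57 ± 0.0621 at E15.5 (1.48-fold lower, adjusted p = 4.4e-05) and -0.017 ± 0.0621 at P2 (95% confidence interval -0.15 to 0.12, adjusted p = 1). The interaction of 0.55 (95% confidence interval 0.36 to 0.74) had an adjusted p of 0.00293. It was 0.56 with an adjusted p of 0.115 after scaling to the 75th percentile and 0.55 with 0.051 when dim signals were set to a floor, in a range of 0.00104 to 0.115 over all alternatives. EH minus EL was -0.58 on each of both E15.5 slides, of which the second held only 1 EH sample, and without sample 2 of EH it was -0.60.

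*Gata6*, which acts alongside GATA4, was lower in PH than in PL. The signal was 4615, 5007, 3770 and 4018 in PL and 2693, 3407, 3449 and 3045 in PH, without overlap. This is a log2 fold-change of -0.47 ± 0.113 (1.38-fold lower, adjusted p = 0.0141). At E15.5 EL gave 3507, 3040, 3309 and 3247 and EH 3110, 2438, 2432 and 2849, which overlap, with a log2 fold-change of -0.28 ± 0.113 (adjusted p = 0.191). The interaction for *Gata6* was -0.18 (95% confidence interval -0.53 to 0.16, adjusted p = 0.755), so the fraction difference was not shown to change with stage.

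*Gata5*, known from the endocardium, varied more between samples at P2 than at E15.5. Its signal was 109.1 to 126.5 in EL and 79.1 to 135.2 in EH, but 65.7 to 177.5 in PL and 77.3 to 222.3 in PH. The groups overlapped in every comparison. The 95% confidence interval of its log2 fold-change reached from -0.92 to 0.54 at E15.5 and from -0.37 to 1.09 at P2.

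*Mef2c*, the MEF2 factor of the early heart fields, was the member that was higher in PH with the largest log2 fold-change. It had signals of 98.2, 113.7, 110.2 and 100.6 in PL and 136.9, 145.6, 178.5 and 148 in PH, which did not overlap. The log2 fold-change was 0.52 ± 0.106 (1.44-fold, adjusted p = 0.00425). At E15.5 the signals were 106.9, 122.6, 125.2 and 132.1 in EL and 130.2, 143.3, 157.2 and 174.5 in EH. The groups overlapped by 1 sample each, and the log2 fold-change of 0.31 ± 0.106 did not pass the test (adjusted p = 0.109). With the sorting experiment as a replicate block, in which the numbered samples of E15.5 are paired, *Mef2c* passed it at 0.31 (adjusted p = 0.0317).

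*Mef2d*, a widely expressed MEF2 factor, was measured by 3 probes. The brightest, A_51_P394676, gave 6598, 7026, 6021 and 6593 in PL and 5540, 4638, 4518 and 5461 in PH, without overlap. Its log2 fold-change was -0.38 ± 0.0754 (1.31-fold lower, adjusted p = 0.00322). The other probes had the same sign at P2 but did not pass the test. A_51_P504672 gave -0.21 (adjusted p = 0.0895) and A_55_P1966958 gave -0.33 (adjusted p = 0.348). The median of the 3 probes adds nothing, because on every microarray it was the signal of A_51_P504672. At E15.5 none of the 3 passed, with log2 fold-changes of -0.08, -0.21 and 0.18.

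*Mef2a*, the MEF2 factor that dominates in the postnatal heart, did not pass the test between fractions by either detected probe. The brighter probe, A_52_P175157, gave 696 to 829.9 in EL and 776.2 to 856.8 in EH, which overlap, and 852.9 to 1038 in PL and 928.4 to 1050 in PH, which overlap too. For A_55_P1985159, the log2 fold-change was -0.43 (95% confidence interval -0.90 to 0.035) at E15.5 and 0.49 (95% confidence interval 0.02 to 0.96) at P2. Both probes are placed on different transcript models.

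For *Srf*, the 2 probes on the same RNA gave different answers. The upstream probe, A_55_P2149540, read 936.4, 873.7, 840.4 and 940 in EL and 460, 489.6, 500.9 and 496.5 in EH. It stayed at that lower level at P2, with 409.9, 357.5, 400.8 and 474.4 in PL and 487.7, 451.2, 462 and 534.4 in PH. All 4 EL samples were thus above all other samples. EH against EL was -0.88 ± 0.0838 on the log2 scale (1.84-fold lower, adjusted p = 1.29e-05), PH against PL 0.24 ± 0.0838 (adjusted p = 0.092), and the interaction 1.12 (95% confidence interval 0.87 to 1.38, adjusted p = 0.000128).

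The downstream *Srf* probe, A_51_P100289, read 4467, 4141, 4412 and 4372 in EL and 5508, 5056, 4314 and 4429 in EH, which overlap. At P2 it read 4017, 3966, 3872 and 4462 in PL and 5151, 5447, 4995 and 6322 in PH, with all PH above all PL samples. The log2 fold-change was 0.14 ± 0.0912 at E15.5 (adjusted p = 0.49) and 0.42 ± 0.0912 at P2 (adjusted p = 0.00651). The latter was 0.23 with an adjusted p of 0.533 after scaling to the 75th percentile, and passed the test under every other alternative (lowest adjusted p = 0.00144). No single direction between the fractions at E15.5 can therefore be given for *Srf*: the median of both probes was -0.37, of opposite sign to the brighter probe.

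*Nkx2-5*, the homeodomain factor, did not pass the test in any comparison of group means. Its log2 fold-change was 0.21 (95% confidence interval -0.059 to 0.47) between the fractions at E15.5 and 0.32 (95% confidence interval 0.056 to 0.59) at P2. Between the stages it was -0.23 (95% confidence interval -0.49 to 0.038) in ITGA6low and -0.11 (95% confidence interval -0.38 to 0.15) in ITGA6high cells. All EH samples were above all EL samples, from 6110 against 5768, while the groups overlapped in the other 3 comparisons. At P2 the signal was 3713, 5108, 4383 and 5511 in PL and 5302, 6688, 4859 and 6496 in PH, so that each PH sample was above the PL sample of the same number. P2 samples of the same number were not all shown to belong together.

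The interaction of fraction and stage passed the test for 3 of 16 member probes, of which 2 had a higher value (*Gata4* and *Srf* A_55_P2149540) and 1 a lower value (*Hand2*). Over all probes 1.81% had a higher and 1.35% a lower value. Of the probes detected throughout, 6.87% passed in either direction, against 3 of the 13 member probes (23.1%). For *Gata4* and this *Srf* probe the fraction difference passed the test at E15.5 and not at P2, while for *Hand2* it passed at both stages and was larger at P2.

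Between the stages, P2 samples were compared with E15.5 samples of the same fraction. All P2 microarrays lay on a slide of their own, so stage, slide and preparation cannot be told apart. In the ITGA6low fraction 5 member probes were higher in PL than in EL, those of *Hand2*, *Gata6*, *Mef2a* A_52_P175157 and *Mef2d* (A_51_P394676 and A_55_P1966958), and 2 were lower, *Hand1* and *Srf* A_55_P2149540. Over all probes 9.70% were higher and 10.0% lower. Among probes detected throughout, 46.4% differed, against 6 of the 13 member probes (46.2%). With the limit of 3-fold, 1 member probe was lower (*Hand1*), as were 2.15% of all probes.

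In the ITGA6high fraction, 2 member probes were higher in PH than in EH (*Gata4* and *Mef2a* A_52_P175157) and 1 was lower (*Hand1*). Over all probes, 9.12% were higher and 8.37% lower, and 40.0% of those detected throughout differed in either direction, against 2 of the 13 member probes (15.4%). *Hand1* was also the 1 member probe past the 3-fold limit, as were 2.10% of all probes in this direction.

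**Figure D3:**
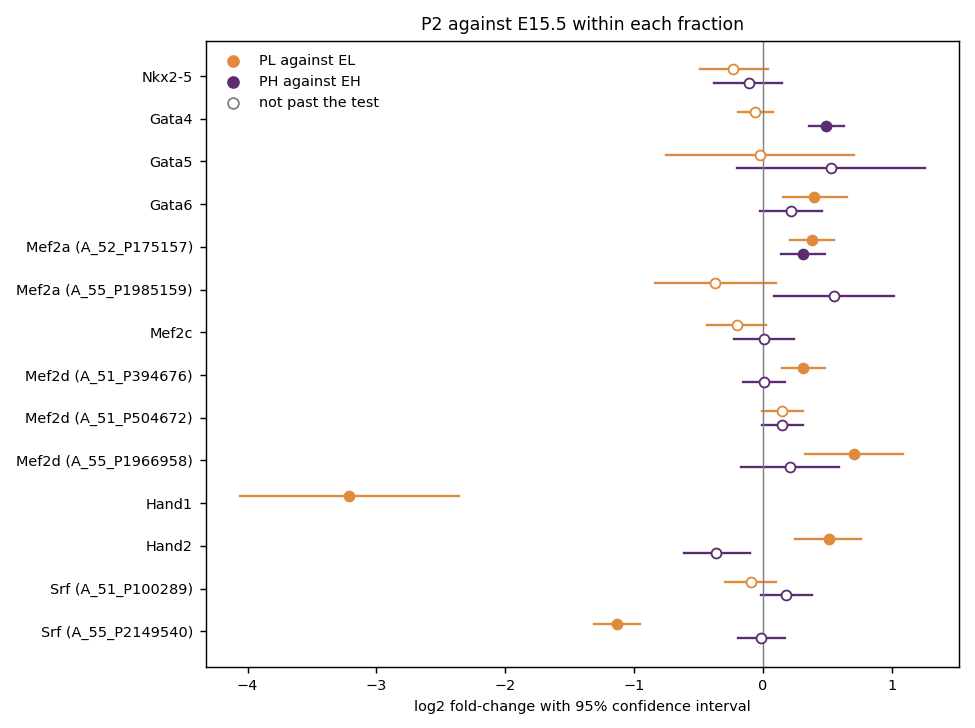
Log2 fold-change (x axis) of each detected member probe from E15.5 to P2 in ITGA6low (orange) and ITGA6high (purple) cells with 95% confidence intervals; filled points pass the test. *Hand1* and *Srf* A_55_P2149540 lie farthest left in ITGA6low cells; *Hand1* is not drawn for ITGA6high cells, where it was at background in PH.

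*Hand1* was lower at P2 in both fractions. Only 1 of 4 PL samples, at 21.5, was well above background, so the size of the difference between PL and EL depends on how dim signals are treated and is not given as a fold. The fitted log2 value was -3.21 ± 0.394 (adjusted p = 4.07e-05). It was -2.28 with a floor for dim signals and -1.19, less than the 3-fold limit, with normexp background correction, and it passed the test under every alternative. By the signals used here, PH was at least 2.6-fold lower than EH (adjusted p = 2.13e-05), a bound set against the dimmest level that was measurable on each PH microarray. The fitted log2 value of that comparison lay between -3.85 and -0.73 over the alternatives, so this bound does not hold under all of them. The fibroblast and epicardial sums given above fell between the same groups, with all 5 epicardial genes lower in both fractions, 6 of 7 fibroblast genes lower in PL and 7 of 7 lower in PH. Their part in the loss of *Hand1* signal was not tested.

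*Hand2* was higher in PL than in EL by 0.51 ± 0.119 on the log2 scale (1.42-fold, adjusted p = 0.00704), without overlap. In ITGA6high cells its value was -0.36 (95% confidence interval -0.61 to -0.10, adjusted p = 0.0554), with adjusted p from 0.0261 to 0.262 over the alternatives. *Gata4* was the reverse, with 0.49 ± 0.0621 in ITGA6high cells (1.41-fold higher in PH, adjusted p = 6.28e-05) and -0.058 ± 0.0621 in ITGA6low cells (adjusted p = 0.629). For both genes the interaction given above is the test of that difference.

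The MEF2 probes that passed the test between the stages were all higher at P2. *Mef2a* A_52_P175157 rose by 0.38 ± 0.0783 in ITGA6low (adjusted p = 0.00278) and by 0.31 ± 0.0783 in ITGA6high cells (adjusted p = 0.0136), without overlap in either. The second *Mef2a* probe gave -0.37 and 0.55 and did not pass. By the median of both probes, the rise in ITGA6low cells was 0.0053 (adjusted p = 1), and the call in ITGA6high cells was lost after scaling to the 75th percentile (0.40, adjusted p = 0.0602). *Mef2d* rose in ITGA6low cells by 0.31 ± 0.0754 (A_51_P394676, adjusted p = 0.00829) and 0.71 ± 0.176 (A_55_P1966958, adjusted p = 0.0096). The call of A_51_P394676 was lost with a floor for dim signals (0.31, adjusted p = 0.0588) and after scaling to the 75th percentile (0.32, adjusted p = 0.0893). The third *Mef2d* probe, A_51_P504672, which was also the median of the 3 on every microarray, gave 0.15 (adjusted p = 0.214). In ITGA6high cells none of the 3 passed. *Gata6* was 0.40 ± 0.113 higher in PL than in EL (adjusted p = 0.0209), a call that was lost without sample 3 of EL (0.37, adjusted p = 0.0638), sample 2 of PL (0.37, adjusted p = 0.0568) or sample 3 of PL (0.33, adjusted p = 0.0665).

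Proteins that work with these factors were described by a list of 26 co-regulators, read by the brightest probe of each gene. Of these, 21 were detected, while *Nkx2-6*, *Isl1*, *Gata1*, *Gata2* and *Gata3* were not. Of all 26, 3 were higher and 5 lower in EH at E15.5, and 1 was higher and 3 lower in PH at P2. In the stage comparisons 5 were higher and 3 lower in PL, and 6 higher and 7 lower in PH. *Gata2*, though not detected, is counted as higher in EH than in EL, and with *Gata3* as lower in PH than in EH. Among all probes detected throughout, 18.8% differed between the fractions at E15.5 and 26.7% at P2. For the stages this share was 46.4% in ITGA6low and 40.0% in ITGA6high cells. The median log2 fold-change of the 21 was 0.12 at E15.5 and -0.0034 at P2 between the fractions.

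*Mkl2*, a myocardin-related coactivator of SRF, was higher in the ITGA6high fraction at both stages, by 0.83 ± 0.0814 at E15.5 (adjusted p = 1.74e-05) and 0.35 ± 0.0814 at P2 (adjusted p = 0.0103). The other SRF coactivators of the list, added here after their values were seen, did not share this. *Myocd*, the gene of myocardin, was lower in EH at -0.55 ± 0.135 (adjusted p = 0.0197, limma), with -0.0034 at P2. *Mkl1* did not pass the test at either stage (0.12 and 0.07). *Hdac7*, a class IIa deacetylase, was higher in EH by 1.12 ± 0.269 (adjusted p = 0.0184), and at P2 its value was 0.81 (adjusted p = 0.0748). Its relative *Hdac9*, which represses MEF2, was lower at both stages, at -0.76 ± 0.0993 (adjusted p = 0.000196) and -0.45 ± 0.0993 (adjusted p = 0.00732). *Tcf4*, a dimerization partner of HAND factors, was lower at -0.74 ± 0.122 at each stage (adjusted p = 0.00144 and 0.000858).

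*Zfpm2*, the GATA4 partner also called FOG2, was lower in EH at -0.56 ± 0.103 (adjusted p = 0.00313), and at P2 its value was -0.28 (adjusted p = 0.119). *Hopx*, a homeodomain protein that restrains SRF, had group means of 6120 and 4969 in EL and EH, and of 11623 and 5928 in PL and PH. It was lower in EH at -0.31 ± 0.0804 (adjusted p = 0.0303, limma) and in PH at -0.97 ± 0.0804 (adjusted p = 1.64e-06). The interaction of fraction and stage was -0.67 (adjusted p = 0.00465, limma). *Gata2*, known from endothelial and blood cells, was well above background on 3 of 4 EH microarrays and on none of the other groups. Over all 4 EH microarrays its signal ranged from 13.3 to 95.6. With these 4 averaged, EH was at least 2.13-fold higher than EL (adjusted p = 0.0082, limma).

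Genes known from textbooks as targets of these factors were described by a list of 24, all of them detected. Part of this list consists of atrial and ventricular marker genes, so that its fraction differences were known beforehand. At E15.5, 9 were higher and 2 lower in EH, and at P2, 6 were higher and 4 lower in PH. The interaction passed for 4 in each direction. Of all probes detected throughout, 18.8%, 26.7% and 6.87% passed the test in these comparisons, in the same order. The largest rises in both stages were those of *Nppa*, *Myl7* and *Gja5*, with log2 fold-changes of 4.35, 3.90 and 3.27 at E15.5 and 4.30, 5.90 and 5.40 at P2, while the value farthest from 0 among members measured in both groups was -1.39, that of *Hand2* at P2.

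Fewer targets were lower than higher in each fraction comparison. *Irx4*, the ventricular homeobox gene, was lower at both (-2.31 and -5.57). *Ckm*, muscle creatine kinase, was lower in EH (-0.50, adjusted p = 0.00957), while *Acta2* and *Acta1*, the smooth muscle and skeletal muscle actins and classical SRF targets, were lower in PH at -2.79 (adjusted p = 2.94e-06) and -1.51 (adjusted p = 0.00224). Other SRF targets of smooth muscle in the list differed in the opposite direction: *Tagln* and *Cnn1*, added here after their values were seen, were higher in PH, with mean signals of 241 in PL and 2031 in PH (adjusted p = 3.47e-07) and of 1159 and 6159 (adjusted p = 7.05e-07). The medians of all 24 were 0.25 at E15.5 and -0.13 at P2.

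**Figure D4:**
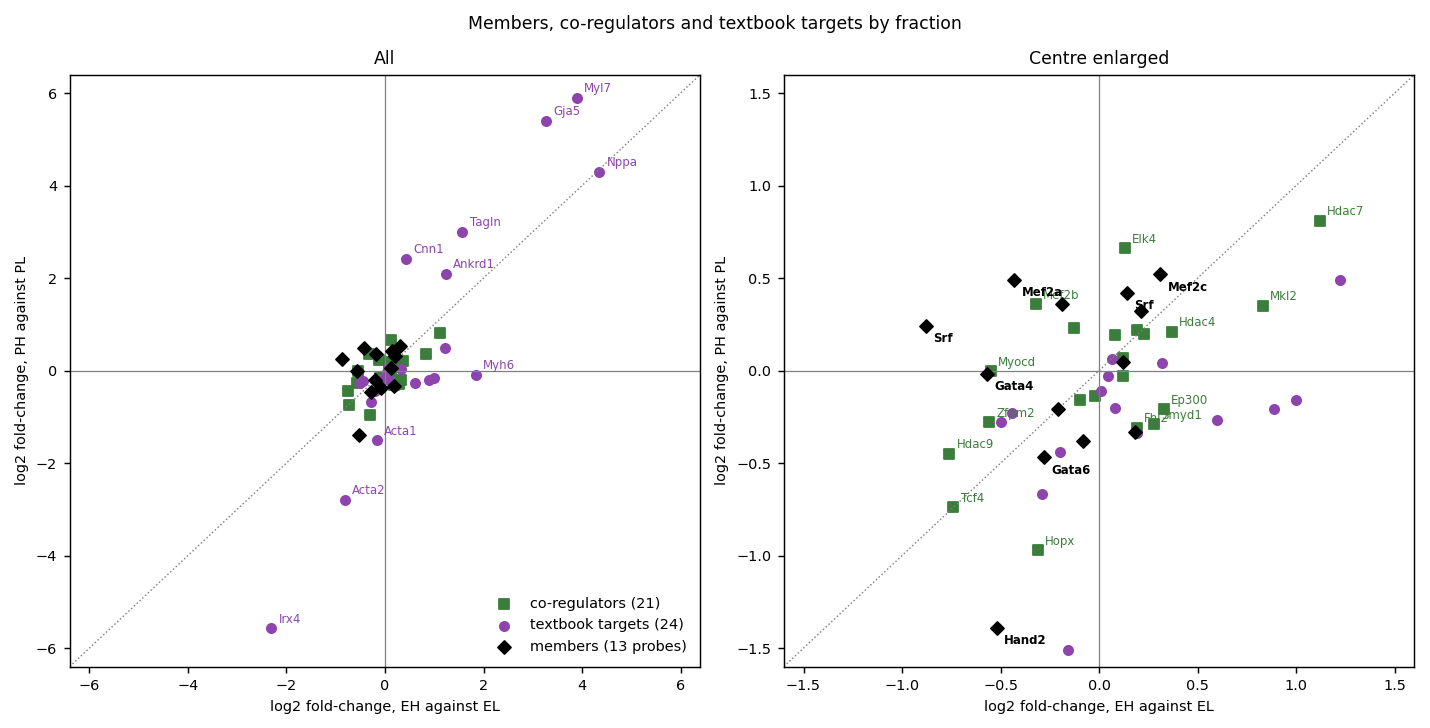
Log2 fold-change between fractions at E15.5 (x axis) and P2 (y axis) of 13 member probes, 21 co-regulators and 24 textbook targets, with the centre enlarged at right; the dotted line marks equal values. All members lie within the enlarged range, and the farthest points are the targets *Myl7*, *Gja5*, *Nppa* and *Irx4*; *Hand1* is not drawn because it was at background in PH.

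The patterns of 3 members were set against 14447 named probes of other genes that were detected throughout, by the root mean square difference of centred log2 signals over 16 microarrays. Nearest to *Hand1* were *Pfkfb3*, a regulator of glycolysis (0.554), and both probes of *Slc16a3*, a lactate transporter (0.707 and 0.711). As *Hand1* was well above background on only 1 of the 8 P2 microarrays, its pattern there is mostly that of signals at background. *Hand2* and *Gata4* were added to this search after their values were seen. Nearest to *Hand2* were *Akap1* (0.181), *Cluh* (0.187) and *Tacc2* (0.204), and nearest to *Gata4* were *Gps2* (0.0927), *Slc4a2* (0.0928) and *Wwc2* (0.104).

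RefSeq promoter sequences (GRCm38.p6, 250 bases before to 50 after the start of a gene) were matched for 7 of the 10 members, with 9 promoters in all, and 3 motifs were searched on both strands. They were the CArG box, AGATAA for GATA factors and TNAAGTG for NKX2-5, which 1.63%, 11.2% and 11.5% of 32817 promoters hold. Among the members, the *Srf* promoter holds 2 CArG boxes, that of *Hand2* holds AGATAA 172 bases before the start, and none holds TNAAGTG. A stretch of the *Srf* promoter (chr17:46556209-46556250, minus strand) is shown because it holds the motif of the factor that the gene itself encodes, with both CArG boxes in capitals.
Srf: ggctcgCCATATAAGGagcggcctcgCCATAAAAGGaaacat
A match is a description of the letters and not a site that was shown to be bound.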

How the data were processed

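RNA of sorted mouse CMs was measured on 16 single-color Agilent microarrays, 4 per group. The authors deposited the scanner output of Agilent Feature Extraction 10.7.3.1, with processed, mean and background signal intensity per spot, and their own quantile-normalized log2 values; the latter differed from the values used here by at most 0.0013 for the members. Control and outlier spots were left out, spots of a probe were averaged, and processed signals were quantile normalized and transformed to log2, as in the study. Quantile normalization forces equal signal distributions, and dim signals depend on the background subtraction. Depth has no meaning here, and the number of microarrays limits the precision. Group means and contrasts were estimated by limma 3.58.1 (R 4.3.3) using empirical Bayes moderation and Benjamini-Hochberg adjustment over 55681 probes. The script was tested on simulated data. Figures were drawn with matplotlib 3.10.9 in Python 3.11.15.

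Named were all members and, per list and fraction contrast, the 3 largest rises and falls past the test, besides genes added after their values were seen. The members and lists were chosen with earlier results of these data known. For *Mef2a*, *Mef2d* and *Srf* all probes were reported. Same-numbered EL and EH samples deviated together from their group means (r = 0.393, 0.215, 0.439 and 0.547 for numbers 2, 3, 6 and 8), so these numbers were read as sorting experiments; P2 numbers did not all pass the limit of 0.1.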

Additional observations from a re-analysis of the deposited data

Results flagged for a closer look

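The values of *Gata4* in EH had 1 sample far from the others: sample 2, at 1622 against 1480 to 1500, with a gap of 0.856 of the range of the group. For *Mef2a* A_52_P175157, sample 4 of PL stood apart at 852.9 against 1012 to 1038, with a gap of 0.868 of the range. Of 54 groups of 4 samples examined for the members, 2 had such a sample, and chance gives about 1 in 20. Without sample 4 of PL, the rise of *Mef2a* A_52_P175157 from EL to PL was 0.45 in place of 0.38.

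The difference between the fractions changed with stage by the test of the interaction for 3 probes, with 0.55 for *Gata4*, -0.86 for *Hand2* and 1.12 for *Srf* A_55_P2149540 on the log2 scale. The second *Srf* probe gave 0.28 (95% confidence interval -0.00053 to 0.56, adjusted p = 0.408).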

How the results depend on the processing

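Of 22 probe comparisons that passed the test, 13 passed it under every alternative, and of 48 that did not, 12 passed under some alternative. For *Mef2d*, the alternative by the median of its probes was the signal of A_51_P504672 alone. Of the comparisons that passed the test in either setting, 1 changed sign, *Srf* between EH and EL, at -0.37 (adjusted p = 0.0062, with 0.0062 to 0.956 over the alternatives) by the median of both probes in place of the brighter probe. In 12 comparisons, that of *Srf* included (-0.02 after scaling to the 75th percentile), the sign changed under some alternative without passing the test by either value, such as in *Mef2a* A_52_P175157 between EH and EL (-0.16 to 0.17) and the interaction of *Hand1* (-0.74 to 0.91). With the limit of 3-fold, 0 member probes remained for EH against EL, 1 each for PH against PL, PL against EL and PH against EH, and 0 for the interaction. For EH against EL, normexp background correction gave 7 probes and the methods' test (analysis of variance, then Tukey) 5 in place of 3. For PH against EH, testing only detected probes gave 5 and a floor for dim signals 7 in place of 3. Scaling to the 75th percentile left 1 probe with an interaction in place of 3. Leaving out 1 sample at a time gave 3 to 4 probes for EH against EL, 6 to 7 for PH against PL, 6 to 7 for PL against EL, 3 to 4 for PH against EH and 3 to 3 for the interaction. Beside the changes of *Gata6* given above, single samples turned these comparisons past the test: *Hand1* between EH and EL (-1.51, -1.27 and -1.27 without EH 8, PL 3 or PL 4, adjusted p = 0.0426, 0.0377 and 0.0273), *Hand2* between PH and EH (-0.41, -0.36, -0.36 and -0.43 without EH 8, PL 4, PL 5 or PH 2, adjusted p = 0.0486, 0.0484, 0.0446 and 0.0279), *Mef2a* A_55_P1985159 between PH and EH (0.55 without PL 2, adjusted p = 0.0128), *Mef2d* A_51_P504672 between EH and EL and between PH and PL (-0.21 and -0.29 without PH 3, adjusted p = 0.038 and 0.00881), and *Srf* A_55_P2149540 between PH and PL (0.31 without PL 5, adjusted p = 0.0175). With the replicate block, counts were 4, 8, 7, 4 and 3 in the same order. For the P2 numbers 2, 3, 4 and 5, r was 0.465, 0.26, -0.065 and 0.718. Number 4 did not pass the limit of 0.1, so the pairing of P2 samples in this block is uncertain. *Nkx2-5* between PH and PL passed the test with this block (0.32, adjusted p = 0.0275). *Hand1* between PH and PL was lost with normexp (-0.15, adjusted p = 0.348) and the floor (-0.36, adjusted p = 0.258). The cause of these changes was not tested. Signals near background limit what can be said of *Hand1*, and the spread between samples, with 4 per group, leaves wide intervals for *Gata5*.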
